A study of Homo sapiens with 18 samples.

Results

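The histone genes counted here are the 67 transcripts, of 13051 in the table of readthrough reads, whose GENCODE 44 symbol names an H1, H2A, H2B, H3 or H4 gene, such as H1-2, H2AC13 or H4C9. They comprised 9 H1, 17 H2A, 16 H2B, 12 H3 and 13 H4 genes. On chromosome 6 there were 50, on chromosome 1 there were 14, and the other 3, all H1 genes, lay elsewhere. The H1 genes were 6 on chromosome 6 and those 3, the H2A genes 12 on chromosome 6 and 5 on chromosome 1, the H2B genes 13 and 3, the H3 genes 8 and 4, and the H4 genes 11 and 2.

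Nascent RNA was isolated from the chromatin of K562 cells, a chronic myeloid leukemia line that carries the Bcr-Abl1 fusion kinase, and was sequenced as long reads. A read was counted as readthrough for a gene when its 3′ end lay over 100 nt past the last annotated end of that gene. There were 6 groups of 3 libraries. JTE 1h cells received JTE-607, an inhibitor of the endonuclease CPSF73, at 5 µM for 1 h, and KCl 45min cells were put under hyperosmotic shock with 110 mM KCl for 45 min. Both are compared with the untreated group CTRL. IM 1h and IM 18h cells received imatinib, an inhibitor of Bcr-Abl1, at 1 µM for 1 h or 18 h, and are compared with the untreated group CTRLim. All groups were of the same line, and the labels give no genetic change in any of them. The RNA was depleted of polyadenylated and ribosomal RNA, and cDNA over 500 nt was selected.

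The libraries held between 229855 and 1349556 reads, of which 8422 to 57982 were readthrough reads, and between 275 and 2656 of these lay on histone genes. Values are given as readthrough reads per 1000000 library reads (RPM), in the order of replicates 1, 2 and 3. One read is one molecule, so no division by gene length was made. The table holds readthrough reads only, so fewer RNAs of a gene and less readthrough per RNA cannot be told apart. CTRLim replicates 2 and 3 did not differ beyond the sampling noise (chi-square per gene 1.03, p = 0.253), while replicate 1 differed from both. Replicates 2 and 3 were therefore counted as 1 sample in each mean ± SD, although the labels list them as separate biological replicates. The pairs of IM 1h libraries also agreed within sampling noise, with chi-square per gene of 0.977 to 1.06, and all other pairs differed. The IM 1h libraries were nevertheless kept as 3 in means, SDs and tests, which may overstate the number of separate samples. Fits with their reads summed into 1 sample are given beside the results. The main tests also kept CTRLim replicates 2 and 3 as separate libraries. The line matched its label, since 7 of 8 erythroid and K562 marker genes had readthrough reads (70.1 to 1257 RPM summed, HBG2 not in the table), against at most 17.05 RPM for 4 markers of other lineages that the table lists.

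Most histone mRNAs are made in S phase, when new DNA has to be packed, and they are not polyadenylated. Their 3′ end forms at a short stem-loop, which is bound by the protein SLBP, while the U7 small nuclear ribonucleoprotein pairs with a purine-rich element downstream. The cut is made by CPSF73, the same enzyme that cleaves polyadenylated transcripts. H2A, H2B, H3 and H4 form the core of the nucleosome, H1 binds the linker DNA, and the genes lie in clusters where H2A and H2B genes often share a promoter.

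The stem-loops are shown first because they mark the true end of these RNAs and because the counted end lies there in some members and not in others. The 30 bases from the start of the stem-loop are given in GRCh38, 5′ to 3′ on the strand of the gene, with the 16 bases of the stem-loop in capitals. They are shown for the most read genes of each family and for a few that carry results described further on.
H1-2: GGCTCTTTTCAGAGCCaccactgatctcaa
H2AC13: GGCTCTTTTCAGAGCCacctacaattttgt
H3C2: GGCTCTTTTCAGAGCCacccacttattcca
H2BC12: GGCTCTTTTAAGAGCCacttaaattatcga
H4C2: GGCCCTTTTCAGGGCCgcccactccctctc
H4C9: GGCCCTTTTTAGGGCCcctaagctttcaac
H2AC15: GGTTCTTTTCAGAGCCacctactttttcac
H2AC11: GGCTCTTTTCAGGGCCacccacgtcttctc
These stretches lie at chr6:26055730-26055759 (minus strand) for H1-2, chr6:27808647-27808676 (plus) for H2AC13, chr6:26031583-26031612 (minus) for H3C2 and chr6:27146352-27146381 (minus) for H2BC12. They lie at chr6:26026887-26026916 (minus) for H4C2, chr6:27139654-27139683 (plus) for H4C9, chr6:27837871-27837900 (minus) for H2AC15 and chr6:27133515-27133544 (plus) for H2AC11. The stem-loop printed for H1-2, H2AC13 and H3C2 was shared by 37 members, 4 H1, 13 H2A, 11 H2B and 9 H3 genes. The form printed for H2BC12 was found in 10 members, among them 5 H2B genes. The forms of H4C2 and H4C9 were found in 8 and 4 H4 genes, and in no other family. The stem-loops of H2AC15, the H2A gene with the second highest number of readthrough reads, and of H2AC11 were found in no other member.

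A stem-loop was present in 64 of 67 members, and was not found in the 3 H1 genes outside the clusters. In 50 members the counted end lay 1 to 18 nt after it, with a median of 5 nt, and no other transcript of the 12704 matched ones had the motif in the 100 nt before or 20 nt after its counted end, so that 0.394% of all had it. In the other 14 members, 2 H2A, 7 H2B, 2 H3 and 3 H4 genes, the counted end lay between 390 nt (H2AC25) and 29196 nt (H2BC18) past the stem-loop, since the transcript counted there is a longer one. For these genes a read must pass the longer end by over 100 nt to be counted. The polyadenylation signal AATAAA was present on the gene's strand in the last 50 nt of 2 of the 50 and of 9 of the 14, against 60.4% of all transcripts. The purine-rich letters AAAGAG stood within 50 nt after the counted end in 15 of the 50 and 1 of the 14, against 1.38% of all transcripts.

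The promoters are shown because H2A and H2B genes lie head to head. The octamer ATTTGCAT, searched on both strands in the RefSeq windows of 250 bases before to 50 bases after the start (GRCh38.p14, 62 members matched), was present in 13 of 16 H2B and 11 of 16 H2A windows, in 1 of 11 H3 windows and in no H1 or H4 window, against 1.77% of all windows. TATAAA on the gene's strand was present in 11 of 16 H2A, 9 of 16 H2B, 8 of 11 H3, 6 of 11 H4 and 4 of 8 H1 windows, against 7.33% of all. For the octamer, in 8 places the same 8 bases were the match of both an H2A and an H2B gene. The octamer is in capitals in the windows of H2BC12 (chr6:27146886-27146915, minus strand), H2BC17 (chr6:27893265-27893294, plus), where the same bases also lie before H2AC17, and H2AC11 (chr6:27132824-27132853, plus), where they also lie before H2BC11.
H2BC12: ctcttcaccttATTTGCATgagaggtccta
H2BC17: gcttcctcttaATGCAAATgagctttctga
H2AC11: tagaatcgcttATGCAAATaaggtgaagag
A match of these letters is a description of the window and was not tested against the reads.

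Histone genes were among the most read genes of the table. They were 0.513% of its transcripts and held 24389 of 447434 readthrough reads, or 5.45%. A member had 170 reads over the 18 libraries at the median, against 10 reads for all transcripts, and 19 of the 100 most read transcripts were histone genes. The 10 most read members held 56.5% of the histone reads. The numbers were led by H2AC13 with 2218 reads, H2AC15 with 2023, H4C2 with 1807, H2BC12 with 1436, H3C10 with 1353 and H1-2 with 1283. In contrast, 20 members had under 30 reads in all, with 1 to 9 reads in 4 H1 genes, 2 to 23 in 4 H2A genes, 1 to 17 in 6 H2B genes, 1 to 11 in 3 H3 genes and 1 to 27 in 3 H4 genes.

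Of all histone reads, 92.2% fell on chromosome 6 and 7.74% on chromosome 1, and the chromosome 6 share lay between 88.4% and 94.0% in every library. The H2A genes took 32.4% of the histone reads, H4 22.1%, H3 18.4%, H2B 16.5% and H1 10.6%. The transcripts of H3C14 and H3C15, of H2AC18 and H2AC19, and of H4C14 and H4C15 on chromosome 1 were 100% identical over the aligned bases, and those of H4C11 and H4C12 were 99.2% identical. The sequence past their ends, which readthrough reads also cover, was not compared, so their separate counts are uncertain.

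Summed over all members, untreated cells differed between the sets of libraries. CTRL had 1716, 2887 and 1063 RPM and CTRLim 3124, 3442 and 3410, with no overlap, although both are untreated. They belong to separate sets of libraries, so that group and set cannot be told apart. JTE 1h had 1534, 2548 and 1289, KCl 45min 1313, 1756 and 846, IM 1h 2838, 3096 and 2687 and IM 18h 1693, 1948 and 1968. The spread between replicates was wide in CTRL, KCl 45min and JTE 1h, where replicate 2 was the highest and replicate 3 the lowest in each group, and narrow in the imatinib set. As a share of all readthrough reads, histone reads made up 5.62% ± 2.88 in CTRL (SD, n = 3), 5.27% ± 1.30 in KCl 45min, 4.09% ± 1.34 in JTE 1h, 8.004% ± 1.37 in CTRLim (n = 2), 6.55% ± 0.456 in IM 1h and 5.05% ± 0.389 in IM 18h (n = 3 each).

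**Figure D1:**
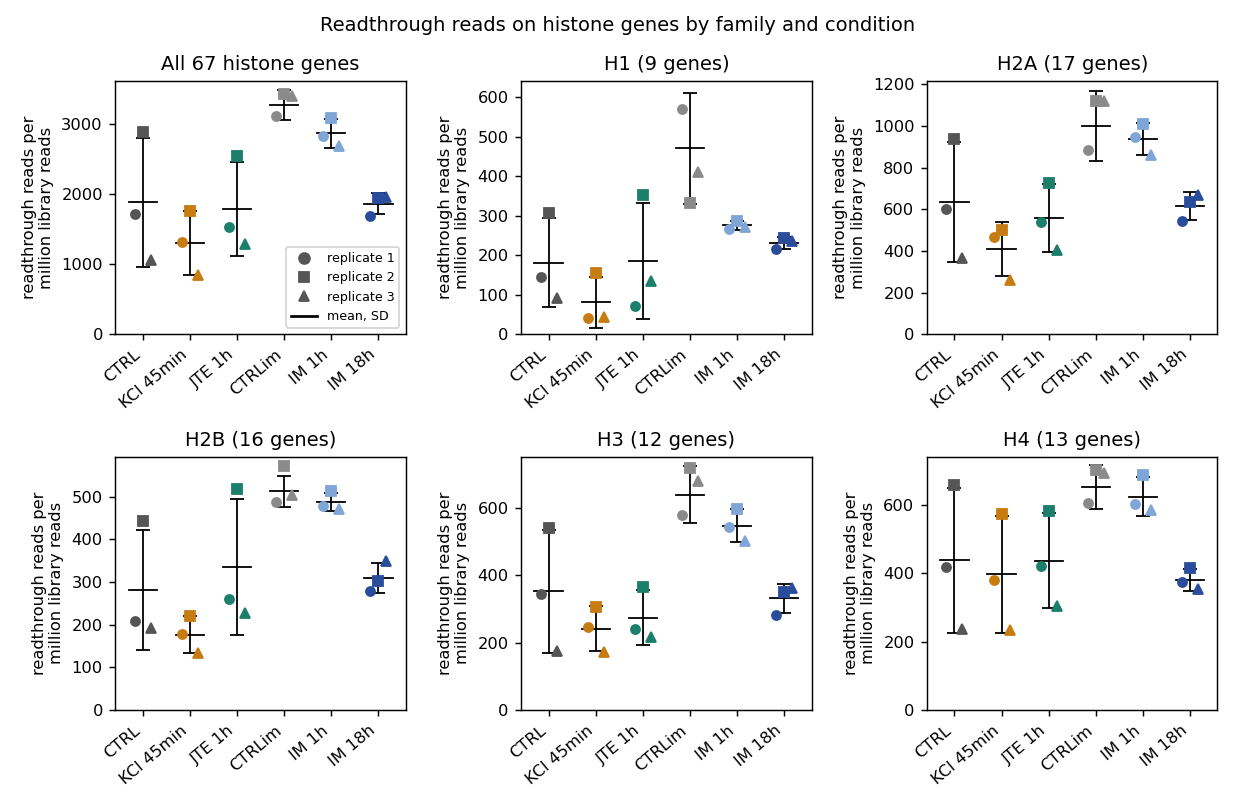
Readthrough reads in RPM, summed over all 67 histone genes and over each family, by condition. Points are libraries with the replicate number as shape, and lines are the mean and SD (n = 3, and n = 2 for CTRLim, whose replicates 2 and 3 count as 1 sample). IM 18h lay below CTRLim in every family, while CTRL, KCl 45min and JTE 1h overlapped.

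By family, the H2A sum was 602, 940 and 367 RPM in CTRL, 468, 500 and 262 in KCl 45min and 540, 729 and 406 in JTE 1h. In the imatinib set it was 883, 1120 and 1123 in CTRLim, 948, 1012 and 860 in IM 1h and 543, 636 and 671 in IM 18h. The chromosome 6 genes carried nearly all of it, with 961 ± 166 RPM in CTRLim (SD, n = 2) and 596 ± 58.8 in IM 18h (n = 3). The chromosome 1 genes held 41.3 ± 3.04, 43.7 ± 2.26 and 20.4 ± 7.70 RPM in CTRLim, IM 1h and IM 18h. IM 18h was thus below both CTRLim and IM 1h on each chromosome. On chromosome 1 this rested largely on H2AC25, with 222 reads over all 18 libraries, against 2 to 55 in each of H2AC18 to H2AC21. H2AC25 lies apart from these genes, with its start at 228456979, against 149842218 to 149887469.

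The H2B sum was 208, 443 and 193 RPM in CTRL, 178, 220 and 134 in KCl 45min and 261, 519 and 227 in JTE 1h. It was 487, 572 and 504 in CTRLim, 478, 513 and 472 in IM 1h and 279, 302 and 349 in IM 18h. On chromosome 6 the mean was 477 ± 15.7 RPM in CTRLim (SD, n = 2) and 269 ± 31.6 in IM 18h (n = 3), with no overlap. On chromosome 1 the values 21.8, 51.8 and 48.8 in CTRLim and 42.6, 32.1 and 49.6 in IM 18h overlapped. The chromosome 1 genes H2BC21, H2BC26 and H2BC18 all have their counted end past the stem-loop, by 1729, 4551 and 29196 nt. Chromosome and position of the counted end thus cannot be told apart for them, and the difference between the chromosomes was not tested. Of the chromosome 1 H2B genes, H2BC21 held most, with 392 reads over all 18 libraries.

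The H3 sum was 344, 538 and 174 RPM in CTRL, 246, 306 and 172 in KCl 45min and 242, 366 and 215 in JTE 1h, and 579, 717 and 680 in CTRLim, 544, 597 and 501 in IM 1h and 283, 350 and 362 in IM 18h. Chromosome 1 held a larger part of this family than of any other. Its H3 genes had 122, 193 and 199 RPM in CTRLim, 98.1, 108 and 98.4 in IM 1h and 43.6, 90.0 and 85.2 in IM 18h, so that both imatinib groups lay below the controls. Those on chromosome 6 had 457, 524 and 481 RPM in CTRLim, 446, 488 and 402 in IM 1h and 239, 260 and 276 in IM 18h, where IM 1h overlapped CTRLim and IM 18h did not.

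The H4 sum was 419, 658 and 236 RPM in CTRL, 380, 574 and 234 in KCl 45min and 420, 582 and 305 in JTE 1h, and 605, 700 and 693 in CTRLim, 600, 687 and 583 in IM 1h and 373, 416 and 352 in IM 18h. The chromosome 1 genes H4C14 and H4C15 added between 0 and 12.7 RPM in any library. As a share of the histone reads of a library, H4 took 27.7% to 32.7% in KCl 45min, against 22.2% to 24.4% in CTRL and 22.8% to 27.4% in JTE 1h, so KCl 45min did not overlap either group.

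The H1 sum was 144, 307 and 92.8 RPM in CTRL, 41.4, 156 and 44.5 in KCl 45min and 71.8, 352 and 136 in JTE 1h, and 570, 333 and 410 in CTRLim, 267, 288 and 272 in IM 1h and 215, 244 and 235 in IM 18h. CTRLim replicate 1, with the fewest library reads, had the highest H1 sum. Here IM 1h already lay below all CTRLim libraries. Of the histone reads, H1 took 3.15% to 8.89% in KCl 45min and 8.40% to 10.6% in CTRL.

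After 18 h of imatinib the histone genes had fewer readthrough reads than the untreated cells of the same set, in all 5 families. The sum was 3275 ± 214 RPM in CTRLim (SD, n = 2) and 1869 ± 153 in IM 18h (n = 3), which is 57.1% of the control and -0.81 on the log2 scale. The family sums in IM 18h were 49.1% of CTRLim for H1, 51.9% for H3, 58.5% for H4, 60.5% for H2B and 61.5% for H2A, with no overlap in any of them. In these means CTRLim replicate 1 weighs as much as replicates 2 and 3 together. It had 570 RPM for H1, against 333 and 410, and 579 for H3, against 717 and 680. The order of the families depends on this weight and was not tested. With CTRL in place of CTRLim, the sum differed by -0.01 on the log2 scale, so the decrease rests on the control of the same set.

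Gene by gene (edgeR quasi-likelihood test on the counts, Benjamini-Hochberg adjusted over the 1386 genes with at least 30 reads in the 6 libraries, called at an adjusted p under 0.05), 22 of 41 histone genes tested were lower in IM 18h than in CTRLim, or 53.7%, against 8.95% of all genes tested. H2AC11 was the 1 gene higher, or 2.44%, against 5.19% of all genes. The median log2 fold change of the tested members was -0.94 and that of all genes tested was -0.01. The tested members had more reads, 173 at the median against 49.0 for all genes tested. Lower calls came to 3 of 4 H1 genes tested, 6 of 11 H2A, 3 of 9 H2B, 6 of 9 H3 and 4 of 8 H4. On chromosome 6 they were 19 of 36 and on chromosome 1 they were 3 of 5.

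With CTRLim replicates 2 and 3 as 1 sample there were 17 calls, all lower, and H2AC11 was no longer called. Without CTRLim replicate 2 there were 14 calls, all lower. Over all genes these fits called 57 higher and 97 lower of 1386, and 43 higher and 73 lower of 1229. DESeq2 made 9 calls, the fit with all 18 libraries 12, and CTRL as the control 4, of which 2 were higher. Over all genes DESeq2 called 35 higher and 44 lower, and the fit with all 18 libraries 46 higher and 67 lower. With CTRL as the control 193 of 1262 genes were higher and 74 lower. In each of the 6 fits without 1 library, 11 of the 23 calls held, those of H2BC12, H3C2, H4C9, H2BC13, H2AC4, H3C13, H2AC13, H2AC7, H2AC12, H2AC17 and H1-2. Without CTRLim replicate 2 the calls of H4C1, H3C12, H4C11, H3C15, H3C14, H2AC8, H2BC17, H2AC11 and H3C10 were lost, and without CTRLim replicate 3 those of H4C2, H3C12, H1-4, H3C14, H2AC8, H2BC17 and H2AC11. H1-5 lost its call without CTRLim replicate 1, H2BC17 and H3C10 without IM 18h replicate 1, H3C14, H2AC8, H2AC11 and H3C10 without IM 18h replicate 2, and H4C2, H4C11 and H3C10 without IM 18h replicate 3.

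Compared with IM 1h, which shares the IM 18h libraries with the comparison above, 18 of 43 members tested were lower in IM 18h, or 41.9%, against 14.1% of the 1720 genes tested, and H2AC11 was higher, or 2.33%, against 4.19% of all genes. The median of the members was -0.60 and that of all genes was -0.30, so that the members stood 0.30 below the shift of all genes. With TMM scaling, which takes that shift out, the calls over all genes went from 72 higher and 243 lower to 111 higher and 92 lower, and 10 members were called, 9 of them lower. Without IM 1h replicate 2, 12 members were called, with DESeq2 4, and with all 18 libraries in the fit 5. Over all genes these fits called 183, 63 and 112. With the IM 1h libraries summed into 1 sample, which is then assumed to vary like IM 18h, 11 members were called, all lower. H2AC7, H4C11, H3C4, H2AC13, H2AC11, H2AC25, H4C12 and H2BC17 were then no longer called. The sum in IM 18h was 65.1% of IM 1h, or -0.62 on the log2 scale, with no overlap. In each fit without 1 library 11 of the 19 calls held, those of H3C2, H2BC12, H4C9, H2AC4, H2AC12, H2AC8, H4C2, H2AC17, H2BC13, H3C12 and H4C11. Of the others, H2AC13, H4C12, H4C1, H2AC11, H3C4, H2AC25 and H2BC17 were lost without IM 1h replicate 2, and H2AC11, H3C4, H2AC25 and H2BC17 without IM 1h replicate 3. H2AC7, H2AC25 and H2BC17 were lost without IM 1h replicate 1, H3C4, H2AC25 and H2BC17 without IM 18h replicate 1, and H2AC25 without IM 18h replicate 2.

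**Figure D2:**
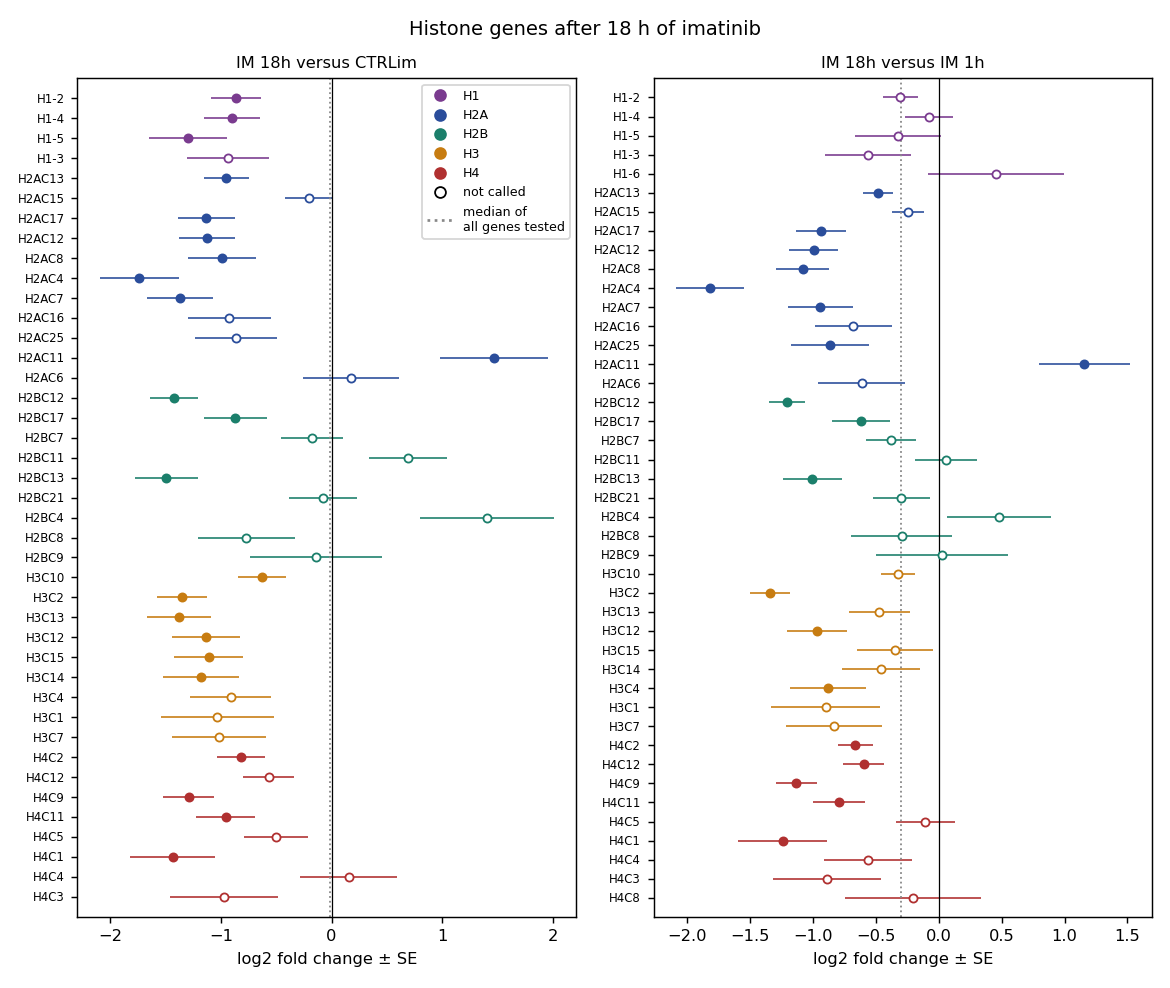
Log2 fold change ± SE of each tested histone gene in IM 18h versus CTRLim (left, 41 genes) and versus IM 1h (right, 43 genes), ordered by family and reads. Filled points passed the adjusted p, the dotted line is the median of all genes tested, and H2AC11 is the 1 filled point right of 0 in both panels.

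Among the H3 genes, H3C2 had 130, 168 and 160 RPM in CTRLim, 156, 180 and 130 in IM 1h, and 66.0, 54.0 and 63.0 in IM 18h. IM 18h was below every library of the other groups. The log2 fold change was -1.35 ± 0.23 (adjusted p = 2.98e-05) against CTRLim and -1.34 ± 0.16 (adjusted p = 2.33e-11) against IM 1h in edgeR's quasi-likelihood test. H3C10, whose counted end lies 769 nt past its stem-loop, had 257, 213 and 175 RPM in CTRLim, 189, 176 and 150 in IM 1h, and 133, 133 and 144 in IM 18h. IM 18h lay below both other groups, which overlapped each other, and its change of -0.63 ± 0.22 was the smallest among the calls against CTRLim. H3C12 had 21.8, 70.4 and 69.1 RPM in CTRLim, 46.1, 61.1 and 51.1 in IM 1h, and 19.1, 31.3 and 28.2 in IM 18h, so that CTRLim replicate 1 lay within the IM 18h range. Its changes were -1.14 ± 0.31 and -0.97 ± 0.24 against CTRLim and IM 1h, both called. H3C4 was called against IM 1h only, at -0.88 ± 0.30, with 28.2, 34.9 and 37.4 RPM in IM 1h and 8.51, 19.6 and 24.4 in IM 18h.

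On chromosome 1, H3C13 had 34.8, 87.0 and 110 RPM in CTRLim, 35.7, 57.6 and 41.1 in IM 1h, and 20.2, 40.7 and 32.6 in IM 18h. CTRLim replicate 1 was as low as IM 1h and IM 18h, and the gene was called in both imatinib groups against CTRLim, at -0.95 ± 0.24 (adjusted p = 0.00553) for IM 1h and -1.38 ± 0.29 (adjusted p = 0.000654) for IM 18h in edgeR's test. Its neighbours H3C14 and H3C15 have identical transcripts, so their separate counts are uncertain. H3C14 had 39.2, 55.5 and 44.7 RPM in CTRLim and 7.45, 23.5 and 29.6 in IM 18h. H3C15 had 47.9, 49.99 and 44.7 RPM in CTRLim and 15.96, 25.8 and 23.0 in IM 18h. Neither overlapped between these groups, and the changes were -1.18 ± 0.35 and -1.11 ± 0.32.

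Among the H2B genes, H2BC12 had 222, 239 and 217 RPM in CTRLim, 178, 209 and 198 in IM 1h, and 75.5, 75.9 and 100.8 in IM 18h. It had the smallest adjusted p of all histone genes against CTRLim, with a log2 fold change of -1.42 ± 0.22 (adjusted p = 5.78e-06) in edgeR's test, and changed by -1.21 ± 0.15 (adjusted p = 2.57e-11) against IM 1h. H2BC13 had 43.5, 90.7 and 93.4 RPM in CTRLim, 66.9, 61.1 and 46.1 in IM 1h, and 18.1, 36.0 and 29.6 in IM 18h, with changes of -1.49 ± 0.29 and -1.01 ± 0.23. H2BC17, which shares its promoter octamer with H2AC17, had 52.2, 72.2 and 58.9 RPM in CTRLim, 46.1, 55.8 and 56.1 in IM 1h, and 21.3, 42.3 and 37.0 in IM 18h, with changes of -0.87 ± 0.29 and -0.62 ± 0.23. In all 3, IM 18h lay below the other groups. H2BC7, the third most read H2B gene, had 74.0, 61.1 and 40.6 RPM in CTRLim, 63.9, 71.5 and 59.8 in IM 1h, and 50, 39.1 and 60.02 in IM 18h, and IM 18h overlapped CTRLim (log2 fold change -0.18 ± 0.28, not called).

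Among the H2A genes, H2AC13 had 322, 402 and 422 RPM in CTRLim, 279, 316 and 245 in IM 1h, and 179, 210 and 208 in IM 18h. The groups did not overlap, and the log2 fold change was -0.95 ± 0.20 (adjusted p = 0.000731) against CTRLim and -0.49 ± 0.12 (adjusted p = 0.00143) against IM 1h in edgeR's test. H2AC15, nearly as often read, had 170, 248 and 201 RPM in CTRLim, 217, 230 and 201 in IM 1h, and 169, 192 and 184 in IM 18h. IM 18h overlapped CTRLim (-0.20 ± 0.21) and lay below every IM 1h library (-0.24 ± 0.12), and the gene was not called in either comparison. The difference between H2AC13 and H2AC15 was not tested.

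H2AC4 had 30.4, 53.7 and 67.03 RPM in CTRLim, 50.5, 62.8 and 57.3 in IM 1h, and 5.32, 19.6 and 20.8 in IM 18h, and its fold changes of -1.74 ± 0.36 (adjusted p = 0.000439) and -1.82 ± 0.27 (adjusted p = 5.81e-08) in edgeR's test were the lowest of any called member in both comparisons. H2AC17 had 87.0, 90.7 and 87.3 RPM in CTRLim, 83.2, 75.0 and 74.7 in IM 1h, and 28.7, 47.0 and 43.7 in IM 18h. H2AC12 had 104, 102 and 75.2 RPM in CTRLim, 86.2, 89.0 and 78.5 in IM 1h, and 46.8, 36.8 and 43.7 in IM 18h. H2AC7 had 52.2, 48.1 and 75.2 RPM in CTRLim, 50.5, 41.9 and 39.9 in IM 1h, and 19.1, 21.9 and 26.7 in IM 18h. In each of these genes IM 18h lay below every library of the other groups. Against CTRLim the changes were -1.13 ± 0.26 for H2AC17, -1.13 ± 0.25 for H2AC12 and -1.37 ± 0.30 for H2AC7, and against IM 1h they were -0.94 ± 0.20, -0.99 ± 0.19 and -0.94 ± 0.26, all called.

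H2AC8 had 13.1, 81.5 and 85.3 RPM in CTRLim, 74.3, 89.0 and 53.6 in IM 1h, and 31.9, 33.7 and 34.8 in IM 18h. CTRLim replicate 1 was lowest of all, so the change of -0.99 ± 0.31 against CTRLim stood beside overlapping groups, while IM 1h and IM 18h did not overlap (-1.08 ± 0.21). H2AC25, on chromosome 1 and with its counted end 390 nt past the stem-loop, had 39.2, 24.1 and 34.5 RPM in CTRLim, 32.7, 34.9 and 27.4 in IM 1h, and 10.6, 16.4 and 23.0 in IM 18h and was called against IM 1h only, at -0.86 ± 0.31.

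H2AC11 moved the other way. It had 26.1, 1.85 and 8.12 RPM in CTRLim, 14.9, 6.98 and 11.2 in IM 1h, and 23.4, 23.5 and 28.2 in IM 18h. CTRLim replicate 1 lay among the IM 18h libraries, and IM 1h lay below them all. The log2 fold change was 1.47 ± 0.49 (adjusted p = 0.0325) against CTRLim and 1.16 ± 0.36 (adjusted p = 0.0152) against IM 1h in edgeR's test. Its divergent neighbour H2BC11, whose counted end lies 6424 nt past the stem-loop, had 21.8, 31.5 and 12.2 RPM in CTRLim, 29.7, 41.9 and 32.4 in IM 1h, and 37.2, 36.8 and 33.3 in IM 18h and was not called (0.69 ± 0.35 against CTRLim).

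**Figure D3:**
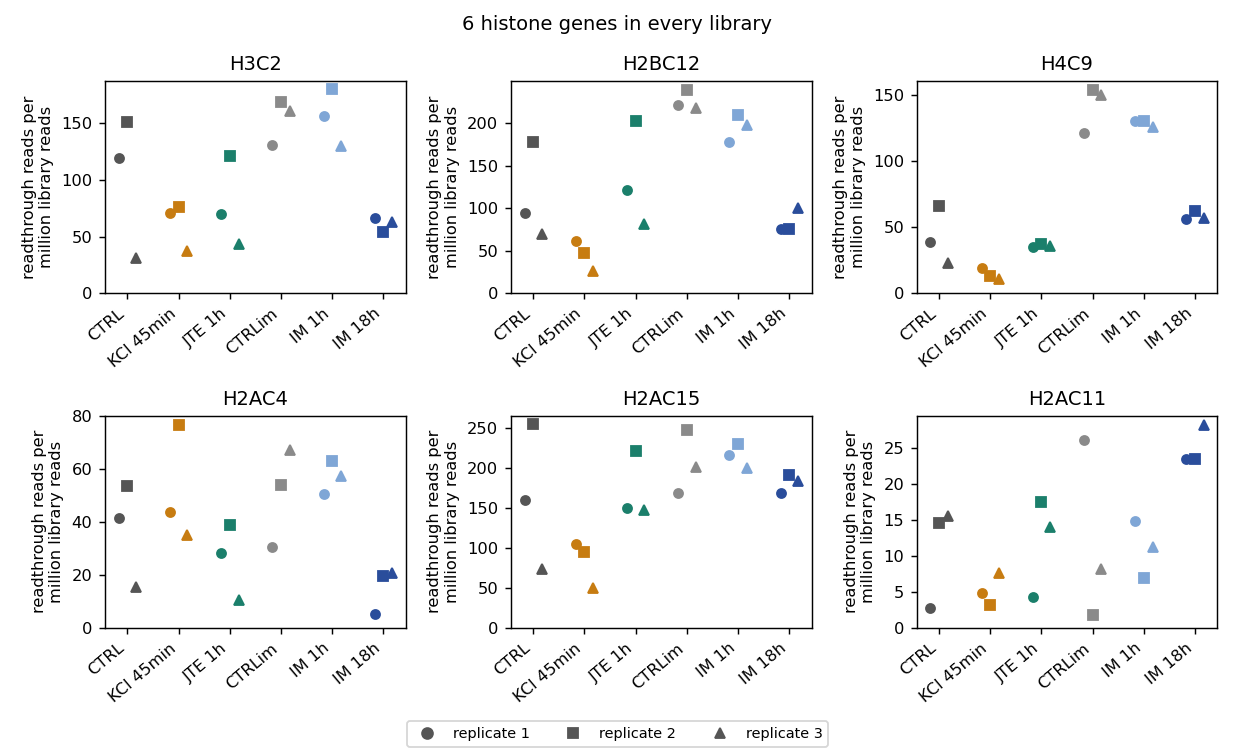
Readthrough reads in RPM of 6 histone genes in each of the 18 libraries, with the replicate number as shape. H3C2, H2BC12, H4C9 and H2AC4 were lowest in IM 18h within the imatinib set, H2AC15 overlapped between IM 18h and CTRLim, and H2AC11 had 23.4 to 28.2 in IM 18h against 6.98 to 14.9 in IM 1h.

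Among the H4 genes, H4C9 had 122, 154 and 150 RPM in CTRLim, 131, 131 and 126 in IM 1h, and 56.4, 62.6 and 57.1 in IM 18h. IM 18h lay below every library of the other groups, with changes of -1.29 ± 0.23 (adjusted p = 6.17e-05) against CTRLim and -1.13 ± 0.16 (adjusted p = 3.17e-08) against IM 1h in edgeR's test. H4C2 had 183, 220 and 246 RPM in CTRLim, 186, 246 and 163 in IM 1h, and 126, 139 and 108 in IM 18h, with changes of -0.82 ± 0.22 and -0.66 ± 0.14, and again no overlap. H4C1, which lies downstream of H3C1 on the same strand, had 17.4, 33.3 and 28.4 RPM in CTRLim, 20.8, 33.1 and 21.2 in IM 1h, and 6.38, 13.3 and 10.4 in IM 18h and changes of -1.44 ± 0.39 and -1.24 ± 0.35, with no overlap. H4C11 and H4C12 are near-identical. H4C11 had 56.6, 98.1 and 69.1 RPM in CTRLim, 62.4, 78.5 and 67.3 in IM 1h, and 38.3, 48.5 and 32.6 in IM 18h. H4C12 had 122, 118 and 102 RPM in CTRLim, 111, 127 and 108 in IM 1h, and 74.5, 80.6 and 73.4 in IM 18h. In both, IM 18h lay below the other groups. H4C11 was called in both comparisons (-0.96 ± 0.27 and -0.79 ± 0.21), and H4C12 against IM 1h only (-0.60 ± 0.16).

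Among the linker histone genes, H1-2 had 331, 182 and 195 RPM in CTRLim, 152, 157 and 157 in IM 1h, and 132, 130 and 116 in IM 18h. H1-4 had 157, 88.9 and 144 RPM in CTRLim, 63.9, 89.0 and 64.8 in IM 1h, and 47.9, 72.0 and 81.5 in IM 18h. H1-5 had 65.3, 33.3 and 32.5 RPM in CTRLim, 20.8, 12.2 and 26.2 in IM 1h, and 14.9, 18.0 and 15.6 in IM 18h. All 3 were called lower in IM 18h against CTRLim without overlap, at -0.86 ± 0.23, -0.90 ± 0.25 and -1.30 ± 0.35. None of the 5 H1 genes tested was called between IM 18h and IM 1h, where the changes of these 3 were -0.30 ± 0.14, -0.08 ± 0.19 and -0.32 ± 0.34. In the other families 3 of 9 (H2B and H3), 5 of 9 (H4) and 7 of 11 (H2A) tested genes were called lower between the time points. Of all genes tested 14.1% were called lower, so the lack of a call in 5 H1 genes does not set H1 apart. Whether H1 differs from the other families was not tested.

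After 1 h of imatinib few histone genes differed from the untreated cells. The sum was 2874 ± 207 RPM (SD, n = 3), 87.7% of CTRLim, or -0.19 on the log2 scale, and the highest IM 1h library lay just under the lowest CTRLim library. Against CTRLim 2 of 39 members tested were lower, or 5.13%, against 1.32% of the 988 genes tested, and none was higher, against 0.202%. They were H3C13, given above, and H1-4, with -0.80 ± 0.21 (adjusted p = 0.0135) in edgeR's test, though IM 1h replicate 2 overlapped CTRLim. The median of the members was -0.19 and that of all genes was 0.19, so that the members stood 0.38 below the shift of all genes, and TMM scaling, which takes the shift out, called 4 members, all lower, while calls over all genes went from 2 higher and 13 lower to 0 and 17. Without CTRLim replicate 3, IM 1h replicate 1 or IM 1h replicate 3 no member was called, without CTRLim replicate 2 there was 1, and without CTRLim replicate 1 there were 4. With the IM 1h libraries summed into 1 sample the median of the members was -0.18 and that of all genes was 0.18. With CTRL as the control 11 members were called, all higher, while 174 of all 881 genes tested were higher and 28 lower. The medians were then 0.55 for the members and 0.51 for all genes.

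Under hyperosmotic shock the histone sums overlapped those of CTRL, with 1889 ± 924 RPM in CTRL and 1305 ± 455 in KCl 45min (SD, n = 3 each). As a share of the histone reads of a library, chromosome 1 took 9.26% to 11.6% in KCl 45min, against 6.18% to 7.92% in CTRL, with no overlap. The sum in KCl 45min was 69.1% of CTRL, -0.53 on the log2 scale, and 44.5% for H1, 62.9% for H2B, 64.4% for H2A, 68.6% for H3 and 90.5% for H4. On chromosome 1 it was 91.0% and on chromosome 6 it was 67.4%. In edgeR's test 9 of 34 members were lower, or 26.5%, against 20.9% of the 378 genes tested, so the share was near that of all genes. H3C1 was the 1 member higher, or 2.94%, against 4.23%.

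The median log2 fold change was -1.01 for the members and -0.39 for all genes tested, a difference of -0.62. With TMM scaling, where the median of all genes was 0.06, calls over all genes went from 16 higher and 79 lower to 25 higher and 50 lower, and those of members from 1 and 9 to 2 and 3. None of the 10 calls held in every fit without 1 library. Without CTRL replicate 2 or KCl 45min replicate 3 there were 2 calls each, and without CTRL replicate 1 or KCl 45min replicate 2 there were 5 each. Without CTRL replicate 2, both calls were of higher genes, H3C1 and H4C1. H3C1 lost its call without CTRL replicate 1 or KCl 45min replicate 2, and H3C10 without CTRL replicate 2. H1-2 lost its call without CTRL replicate 2 or KCl 45min replicate 3, and H2AC13 and H2BC12 without each of CTRL replicates 1 and 2 and KCl 45min replicates 2 and 3. H3C12 lost its call without CTRL replicate 2, KCl 45min replicate 1 or KCl 45min replicate 3, and H4C5 without these or CTRL replicate 1. H4C9 and H2BC17 lost theirs without CTRL replicate 2 or KCl 45min replicates 2 or 3, and H2BC13 without CTRL replicate 1 or KCl 45min replicates 2 or 3. H2BC13 had too few reads to be tested without CTRL replicate 2. DESeq2 made 2 calls among the members and 47 over all 378 genes.

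The lower genes were H1-2, H2AC13, H2BC12, H2BC13, H2BC17, H3C10, H3C12, H4C5 and H4C9. H1-2 had 41.6, 95.0 and 38.7 RPM in CTRL and 9.74, 31.9 and 4.74 in KCl 45min, with a log2 fold change of -2.20 ± 0.58 (adjusted p = 0.00294) in edgeR's test, the largest decrease among them. H3C10 had 66.5, 141 and 54.1 RPM in CTRL and 31.7, 22.3 and 16.1 in KCl 45min, with -1.97 ± 0.52 (adjusted p = 0.00291). In both genes every KCl 45min library lay below every CTRL library. H2AC13 had 141, 197 and 65.7 RPM in CTRL and 53.6, 60.5 and 25.6 in KCl 45min, with -1.60 ± 0.51. H4C9 had 38.8, 65.8 and 23.2 RPM in CTRL and 19.5, 12.8 and 10.4 in KCl 45min, with -1.67 ± 0.54, and H4C5 had 52.7, 65.8 and 38.7 RPM in CTRL and 9.74, 35.0 and 18.0 in KCl 45min, with -1.40 ± 0.52. Neither overlapped between the groups.

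The log2 fold changes of the 3 H2B genes were -1.41 ± 0.50 for H2BC12, -1.86 ± 0.65 for H2BC13 and -1.49 ± 0.52 for H2BC17. H2BC12 had 94.3, 178 and 69.6 RPM in CTRL and 60.9, 47.8 and 25.6 in KCl 45min, and H2BC17 had 38.8, 80.4 and 30.9 RPM in CTRL and 24.4, 19.1 and 13.3 in KCl 45min. H2BC13 had 33.3, 39.0 and 3.87 RPM in CTRL and 9.74, 3.19 and 7.58 in KCl 45min, and overlapped because CTRL replicate 3 held a single read. H3C12 had 22.2, 56.0 and 23.2 RPM in CTRL and 9.74, 19.1 and 8.53 in KCl 45min, with -1.59 ± 0.56 and no overlap.

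H3C1 had 5.54, 9.75 and 7.73 RPM in CTRL and 17.1, 57.4 and 31.3 in KCl 45min, and every KCl 45min library was above every CTRL library (2.10 ± 0.62 (adjusted p = 0.00822) in edgeR's test). Its neighbour downstream on the same strand, H4C1, had 2.77, 19.5 and 7.73 RPM in CTRL and 26.8, 38.2 and 17.1 in KCl 45min and was not called, at 1.28 ± 0.63 (adjusted p = 0.143). H4C2, the most read H4 gene, had 180, 239 and 77.3 RPM in CTRL and 188, 245 and 97.6 in KCl 45min, so that the groups overlapped throughout (0.06 ± 0.50, not called), and H4C12 had 58.2, 117 and 46.4 RPM in CTRL and 80.4, 95.6 and 27.5 in KCl 45min (-0.20 ± 0.50, not called). H4C2 and H4C12 thus differed in value from H4C9 and H4C5 within the same family, though the difference between the genes was not tested.

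JTE-607 inhibits the enzyme that also cleaves histone RNAs, and no histone gene was called after it. The sum was 1790 ± 667 RPM in JTE 1h against 1889 ± 924 in CTRL (SD, n = 3 each), 94.8% of the control. None of 36 members tested was called in edgeR's test, against 0.0% of the 969 genes called lower and 0.103% called higher, and DESeq2 called none of them either. Over all genes the number called rose from 1 to 69 of 840 without JTE 1h replicate 1, of which 67 were higher, and to 30 with all 18 libraries in the fit, of which 29 were higher, with no member called in either. At an unadjusted p under 0.05 there was 1 member and 108 genes in all. The median was -0.23 for the members and 0.49 for all genes tested, a difference of -0.72. With TMM scaling these medians were -0.63 and 0.04. Of the 36 members, 22 had a negative and 14 a positive log2 fold change, which became 32 and 4 with TMM scaling, and 9 and 26 of 35 without CTRL replicate 2. The JTE 1h libraries differed among themselves by a chi-square per gene of 1.60 to 3.28, and the SE of a single member lay between 0.47 and 0.80.

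The member with the smallest p was H2AC6, whose counted end lies 14432 nt past its stem-loop, with 2.77, 7.31 and 7.73 RPM in CTRL and 10.9, 31.1 and 16.6 in JTE 1h. The groups did not overlap, at 1.69 ± 0.73 (adjusted p = 0.426 in edgeR's test). Of the most read genes, H2AC13 had 141, 197 and 65.7 RPM in CTRL and 115, 115 and 93.2 in JTE 1h. H2AC15 had 161, 256 and 73.5 RPM in CTRL and 150, 222 and 147 in JTE 1h. Both overlapped between the groups. H2BC12 had 94.3, 178 and 69.6 RPM in CTRL and 122, 202 and 81.9 in JTE 1h. H4C2 had 180, 239 and 77.3 RPM in CTRL and 154, 167 and 77.6 in JTE 1h. Both of these overlapped as well. H1-2 had 41.6, 95.0 and 38.7 RPM in CTRL and 26.1, 171 and 57.5 in JTE 1h. H3C10 had 66.5, 141 and 54.1 RPM in CTRL and 39.2, 91.4 and 50.5 in JTE 1h. H3C2 had 119, 151 and 30.9 RPM in CTRL and 69.6, 121 and 43.6 in JTE 1h. These overlapped too. Of these 6 libraries, JTE 1h replicate 2 was the highest for H1-2.

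**Figure D4:**
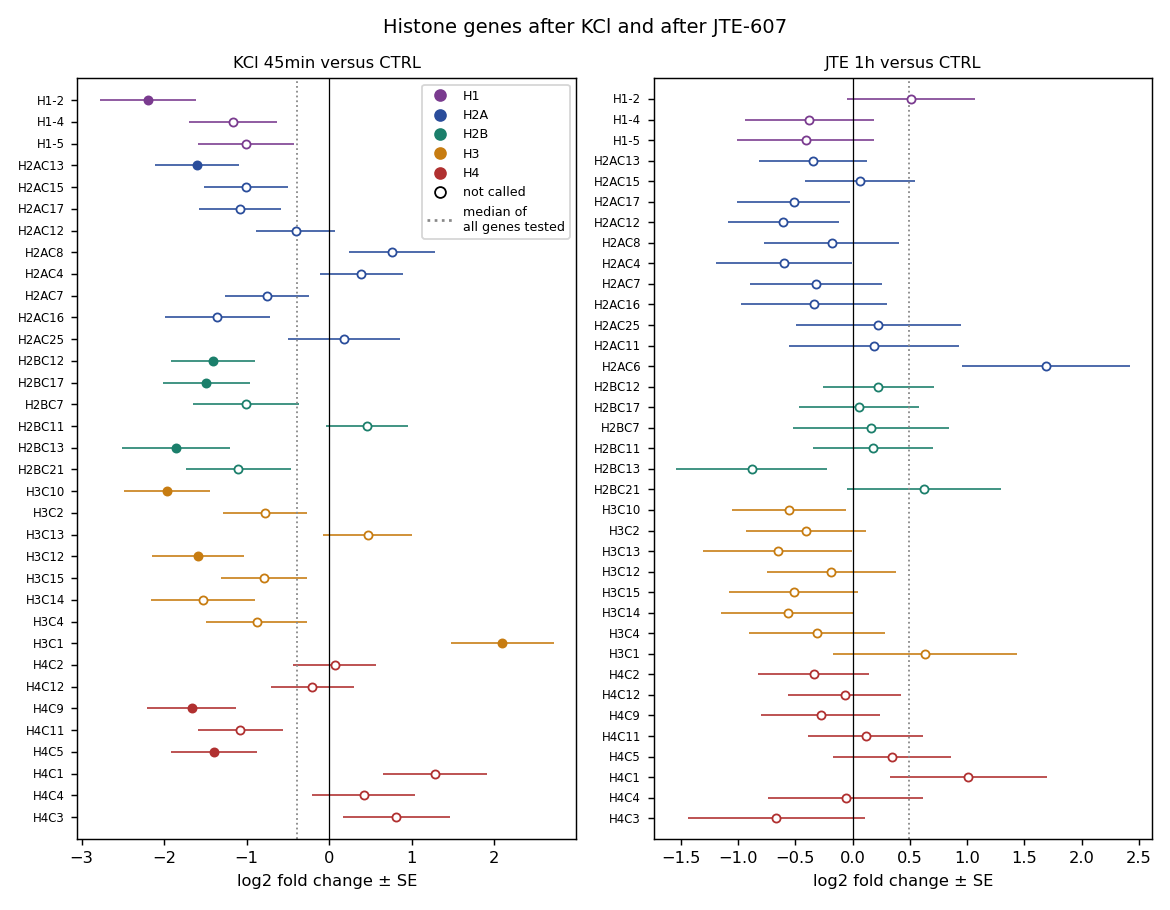
Log2 fold change ± SE of each tested histone gene in KCl 45min versus CTRL (left, 34 genes) and JTE 1h versus CTRL (right, 36 genes). Filled points passed the adjusted p, and the dotted line is the median of all genes tested, at -0.39 and 0.49. H3C1 is the 1 filled point to the right after KCl, and there is none after JTE-607.

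Some of the most read members remain for these groups. H2AC17 had 83.2, 149 and 77.3 RPM in CTRL, 70.6, 57.4 and 24.6 in KCl 45min, and 82.7, 105 and 34.0 in JTE 1h. H1-4 had 63.8, 158 and 23.2 RPM in CTRL, 21.9, 73.3 and 23.7 in KCl 45min, and 28.3, 119 and 47.1 in JTE 1h. H1-5 had 22.2, 31.7 and 27.1 RPM in CTRL, 9.74, 28.7 and 7.58 in KCl 45min, and 10.9, 35.0 and 15.7 in JTE 1h. All overlapped between CTRL and JTE 1h. H2BC7 had 5.54, 36.5 and 27.1 RPM in CTRL, 7.30, 25.5 and 6.63 in KCl 45min, and 6.53, 52.5 and 19.2 in JTE 1h. H2AC17 was lower in every KCl 45min library than in any CTRL library, without passing the test (-1.08 ± 0.50 (adjusted p = 0.115) in edgeR). H2AC15 had 161, 256 and 73.5 RPM in CTRL and 105, 95.6 and 50.2 in KCl 45min (-1.01 ± 0.51, not called). H3C2 had 119, 151 and 30.9 RPM in CTRL and 70.6, 76.5 and 37.0 in KCl 45min. H3C13 had 44.4, 78.0 and 0 RPM in CTRL and 56.0, 79.7 and 46.4 in KCl 45min. All 3 overlapped between the groups.

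Members were also summed by the position of the counted end. The 50 genes counted from the stem-loop had 2741, 3101 and 3110 RPM in CTRLim, 2487, 2756 and 2372 in IM 1h and 1428, 1686 and 1669 in IM 18h. The 14 counted from a later end had 383, 341 and 301 RPM in CTRLim, 349, 338 and 315 in IM 1h and 265, 262 and 299 in IM 18h. IM 18h lay below CTRLim in both, at 54.5% of it for the first and 78.2% for the second. The second sum rested largely on H3C10. That gene alone held 225 RPM in CTRLim and 137 in IM 18h, beside 352 and 275 for its class. The share of the later ends in the histone reads was 13.4% to 15.7% in IM 18h, 10.9% to 12.3% in IM 1h and 8.81% to 12.3% in CTRLim, with no overlap between IM 18h and either group. In IM 18h against CTRLim, 21 of 35 tested genes with the end at the stem-loop were called lower, with a median of -0.97. Of those with a later end 1 of 6 was, H3C10, with a median of 0.05. Of all genes tested 8.95% were called lower. The difference between these classes was not tested.

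In CTRL, JTE 1h and KCl 45min the 50 genes had 1583, 2622 and 944 RPM, 1371, 2267 and 1128 RPM, and 1203, 1584 and 735 RPM. The 14 genes had 130, 263 and 120 RPM in CTRL, 161, 280 and 160 RPM in JTE 1h and 110, 172 and 111 RPM in KCl 45min. Both classes overlapped between the groups. Within 5 kb after the counted end, 25 members had another gene on the same strand, and in 11 the boundary of readthrough lay inside another gene. Restricted to the 42 members without such a neighbour, the sum changed by -0.78 on the log2 scale in IM 18h against CTRLim, beside -0.81 for all members. Of the 67 counted transcripts 31 are 500 nt or shorter, under the selected cDNA size, and the part of this in the values was not tested.

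**Figure D5:**
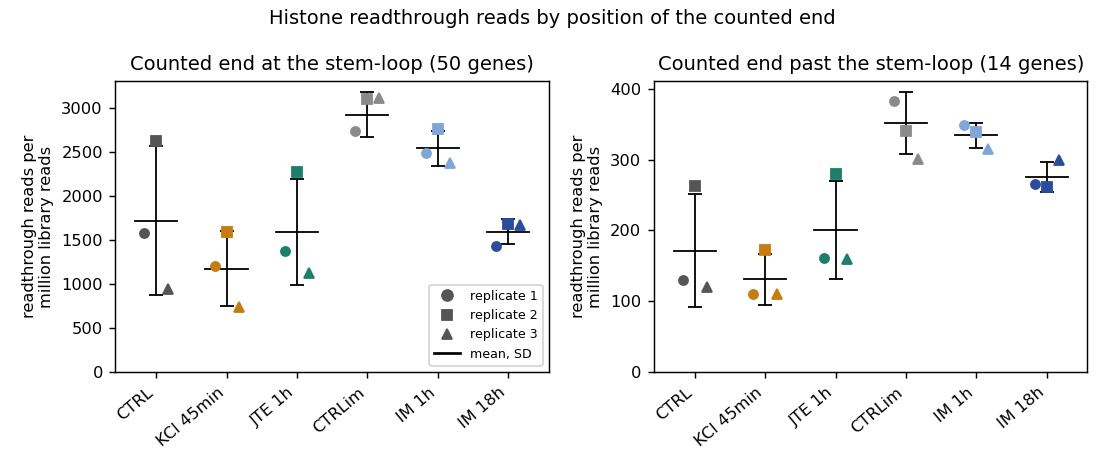
Readthrough reads in RPM, summed over the 50 histone genes whose counted end lies at the stem-loop (left) and the 14 whose counted end lies farther along (right). Points are libraries, lines the mean and SD (n = 3, and n = 2 for CTRLim). In IM 18h the first class was at 54.5% of CTRLim and the second at 78.2%. H3C10 alone held 225 RPM of the second class in CTRLim and 137 in IM 18h.

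Genes for related functions, in lists chosen with earlier results of these data known, had few tested genes. Of 18 listed genes of histone 3′ end processing in the table, 5 were tested in IM 18h against CTRLim and 1 was lower, SNRPE, an Sm core protein (-1.41 ± 0.46, adjusted p = 0.0310 in edgeR). Against IM 1h 1 of 5 was lower, SNRPB (-1.03 ± 0.34, adjusted p = 0.0211), and none was called of 5 in JTE 1h and of 4 in IM 1h, while none could be tested in KCl 45min. Of 8 replacement histone variant genes in the table, H2AX, the H2A variant marked at DNA breaks, was lower in IM 18h, 1 of 5 tested (-1.36 ± 0.48, adjusted p = 0.0462), and it was lower with MACROH2A1 against IM 1h (-1.15 ± 0.42 and -1.02 ± 0.34), while none of 4, 3 and 5 was called in JTE 1h, KCl 45min and IM 1h. Among 15 histone chaperones, ASF1A, which carries H3 and H4 to DNA, was higher in IM 18h against CTRLim, 1 of 3 tested (2.45 ± 0.83, adjusted p = 0.0374), NPM1 was lower against IM 1h, 1 of 5 (-2.01 ± 0.47, adjusted p = 0.000825), and none of 5, 1 and 3 was called in JTE 1h, KCl 45min and IM 1h.

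Among 28 S-phase and replication genes, MCM7, a subunit of the replicative helicase, was lower in KCl 45min, 1 of 2 tested (-2.55 ± 0.52, adjusted p = 0.000147 in edgeR), and in IM 18h against CTRLim, 1 of 5 (-0.67 ± 0.23, adjusted p = 0.0395). None of 9, 3 and 10 was called in JTE 1h, IM 1h and IM 18h against IM 1h. Their summed readthrough reads were 240 ± 17.8 RPM in CTRLim (SD, n = 2), 232 ± 24.1 in IM 1h and 169 ± 10.4 in IM 18h (n = 3 each), so the mean of IM 18h was below both. In CTRL, KCl 45min and JTE 1h they were 267 ± 18.5, 117 ± 28.0 and 372 ± 59.9. MCM7 alone held 137, 109 and 85.3 RPM in CTRLim, IM 1h and IM 18h. In CTRL, KCl 45min and JTE 1h it held 102, 17.6 and 150. The median log2 fold change of the 5 genes tested in IM 18h against CTRLim was 0.02. Of 12 genes of histone gene transcription 1 was tested in each IM 18h comparison and none in the others, and it was not called. The part of the cell cycle in these values was not tested.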

How the data were processed

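Readthrough reads of nascent K562 RNA were analysed in 18 PacBio libraries. The authors trimmed adapters with cutadapt and mapped reads with minimap2 to GRCh38.p14. They removed duplicates by molecular identifier, polyadenylated reads, and reads whose name was entered more than once. They deposited whole-number counts of readthrough reads on 1 transcript per gene, the one with the most distal 3′ end. These counts are neither normalized nor pooled. Library totals are the reads the study lists for each library without splicing intermediates.

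Transcripts were matched by identifier to GENCODE 44, which named 12704 and left 347 without a symbol. The histone genes, the other gene lists and the comparisons were chosen with earlier results of these data known. Genes with at least 30 reads over the 6 libraries of a comparison were tested with edgeR 4.0.16 (glmQLFit, glmQLFTest, R 4.3.3), with library totals as library sizes, and p-values were adjusted by the Benjamini-Hochberg method over all genes tested. The SE of a log2 fold change is its size divided by the square root of the F statistic. The labels call the replicates biological but name no separate cultures, so p-values measure the spread between these libraries. Sums of members are given without a test. Depth limits single genes: on simulated counts of 1386 genes for IM 18h versus CTRLim, edgeR called 81.0% of genes changed by a log2 of 2 and 29.0% of those changed by 1, and for KCl 45min versus CTRL (378 genes) 85.0% and 23.0%. Alternatives were TMM scaling, readthrough reads as library size, DESeq2 1.42.0, other minima of reads, all 18 libraries in the fit, a replicate block, CTRL as the control, and leaving out each library. Added after the data were seen were CTRLim replicates 2 and 3, and the 3 IM 1h libraries, each as 1 sample, and CTRLim as the mean of 3 libraries.

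Per-library values are given for the 3 members of each family with the most reads and for each member called in any comparison; no member off chromosomes 6 and 1 reached 30 reads. From the other lists the called genes are named. Motifs were read from GRCh38 and from RefSeq promoter windows. Python 3.11.15, pandas 2.3.3 and Biopython were used. Gene body reads, splicing and short-read data were not analysed here.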

Additional observations from a re-analysis of the deposited data

Results flagged for a closer look

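IM 18h differed from IM 1h by edgeR's quasi-likelihood test in 19 of 43 histone genes tested, 18 lower and 1 higher. Of all 1720 genes tested 14.1% were lower and 4.19% higher. The members called were 10 with TMM scaling, 4 with DESeq2, and 11 with the IM 1h libraries summed into 1 sample. CTRLim, the control of both time points, does not enter this test. The labels give no time for CTRLim, and the part of time in culture was not tested. The log2 fold changes of IM 18h against IM 1h were -1.82 for H2AC4, -1.34 for H3C2, -1.24 for H4C1, -1.21 for H2BC12, -1.13 for H4C9, -1.08 for H2AC8, -1.01 for H2BC13, -0.99 for H2AC12, -0.97 for H3C12, -0.94 for H2AC7, -0.94 for H2AC17, -0.88 for H3C4, -0.86 for H2AC25, -0.79 for H4C11, -0.66 for H4C2, -0.62 for H2BC17, -0.60 for H4C12, -0.49 for H2AC13 and 1.16 for H2AC11. IM 18h was below every IM 1h library in the 18 lower genes and above every IM 1h library in H2AC11. This describes the same values that gave the calls and is no separate support. Overlap was not counted over all genes. All genes tested had a median of -0.30 in this comparison, and cell-cycle state was not measured, so its part was not tested. No outlier test was run on the values of single genes, since each group has 3 libraries.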

How the results depend on the processing

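Of the 54 calls of single histone genes, 772 alternative values were computed, of which 531 kept the direction and the call, 235 kept the direction and lost the call, and 6 changed direction. All 6 arose with CTRL in place of CTRLim for IM 18h, where the log2 fold changes were 0.0198 for H2AC8, 1.06 for H1-2, 0.53 for H2AC13, 0.61 for H3C10, 0.0481 for H2BC13 and 0.40 for H4C9. CTRL and CTRLim are separate sets of libraries, and the cause was not tested.

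The number of members called was 10 for KCl 45min versus CTRL, and was 5 with TMM scaling, 4 with readthrough reads as library size, 2 with DESeq2, 2 with at least 1 read, and 2 to 12 without 1 library. For IM 1h versus CTRLim it was 2, and was 4 with TMM scaling and with readthrough reads as library size, 11 with CTRL as the control, and 0 to 4 without 1 library. It was 0 with DESeq2, with at least 1 read and with all 18 libraries. At an unadjusted p under 0.05 (DESeq2's test, then edgeR's) these fits gave 8 of 39, 8 of 57 and 3 of 39 members. Over all genes they gave 37 of 988, 439 of 9061 and 60 of 988. With the IM 1h libraries summed into 1 sample the median of the members was -0.18. For IM 18h versus CTRLim it was 23, and was 9 with DESeq2, 12 with all 18 libraries, 4 with CTRL as the control, and 14 to 25 without 1 library. For IM 18h versus IM 1h it was 19, and was 10 with TMM scaling, 12 with readthrough reads as library size, 4 with DESeq2, 5 with all 18 libraries, 11 with the IM 1h libraries summed into 1 sample, and 12 to 20 without 1 library. For JTE 1h versus CTRL it was 0 under each alternative run. With CTRL as the control, 202 of all 881 genes tested were called for IM 1h and 267 of 1262 for IM 18h.

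The log2 ratio of summed reads was -0.19 for IM 1h versus CTRLim, -0.29 with readthrough reads as library size and 0.61 with CTRL as the control, -0.14 to -0.25 without 1 library. For IM 18h versus CTRLim it was -0.81, -0.66 with readthrough reads as library size, -0.0149 with CTRL as the control, and -0.74 to -0.87 without 1 library. For IM 18h versus IM 1h it was -0.62, -0.38 with readthrough reads as library size, and -0.55 to -0.67 without 1 library. The ratios were -0.53 for KCl 45min (-0.09 with readthrough reads as library size, -0.09 to -0.82 without 1 library) and -0.08 for JTE 1h (-0.46 with readthrough reads as library size, -0.42 to 0.37 without 1 library), and the sign of the latter changed without CTRL replicate 2, JTE 1h replicate 1 or JTE 1h replicate 3.

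The main tests did not pair libraries by replicate number. Deviations of same-numbered libraries correlated at 0.25, -0.01 and 0.22 for JTE 1h and at 0.30, 0.05 and 0.20 for KCl 45min. In the imatinib set they correlated between -0.03 and 0.10. Not every library correlated best with its own number. The histone sums of CTRL, KCl 45min and JTE 1h were highest in replicate 2 and lowest in replicate 3 of each group. Whether same-numbered libraries of these groups belong together was not tested. With a replicate block the members called were 9 for KCl 45min, 1 for IM 1h, 23 for IM 18h versus CTRLim, 18 for IM 18h versus IM 1h and 0 for JTE 1h. Depth limits the calls, as 20 members had under 30 reads in all.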

Other observations

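The testis histone genes H2AC1 and H2BC1, which share a promoter, were sparse and unevenly spread over the groups, and were singled out after their values were seen. H2AC1 had 0 reads in CTRLim and IM 1h, where a count of 0 allows up to 2.38 and 1.46 RPM over the group (3 reads, counting error only), and 3, 6 and 4 reads in the IM 18h libraries. In CTRL, KCl 45min and JTE 1h it had 6, 6 and 5 reads over the group. H2BC1 had 0 reads in CTRL, CTRLim and IM 1h, 3, 2 and 6 reads in the KCl 45min libraries, 2 reads over the JTE 1h libraries and 4 over those of IM 18h. In both genes another gene annotated on the plus strand covers the boundary of readthrough, on the strand of H2BC1.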
